A study of Laccaria bicolor with 20 samples.

Results

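A set of 61 gene models of the ectomycorrhizal basidiomycete Laccaria bicolor had few or no reads on control medium. Their mean level was higher on at least 1 altered medium. They were chosen from 23130 gene models by their own levels, in reads of a gene per 1000000 counted reads of the library (CPM). A member had a mean under 0.3 CPM in the 3 Control libraries and a mean of 1 CPM or more in at least 1 of 6 altered media, with 5 or more reads in every library of that medium. The hydrophobin gene LbH12 (JGI-241509) was left out of the set. Each member was placed in the medium with its highest mean, called its top medium here. The counts were 29 members for −N, 13 for +N, 12 for −C, 5 for +P, 2 for +C and 0 for −P.

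The mycelium was of strain S238N in all groups. Colonies grew for 2 weeks on agar with modified Melin Norkrans medium (MMN), and then for 1 week in the dark at 25 °C on fresh control MMN (Control, 0.5% glucose) or on an altered MMN. The ammonium salts were omitted in −N with phosphate kept up, and +N received 25 mM of ammonium as a chloride salt. Phosphate salts were omitted in −P with ammonium kept up, and 25 mM KH2PO4 was added in +P. Glucose was 0.02% in −C and 2% in +C. Malt extract and casein hydrolysate were part of the basal recipe, so that −N still held organic nitrogen and −C other carbon. RNA of 3 cultures per medium, and of 2 for +P, was sequenced, described in the labels as biological replicates.

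Laccaria bicolor lives in soil and in the fine roots of trees, where it trades mineral nutrients for sugar. Free mycelium takes up ammonium through membrane transporters, glucose through sugar transporters, and organic nitrogen after digestion by secreted proteases. The fungus also secretes many small proteins. Those first found to be up-regulated in mycorrhizal root tips are called mycorrhiza-induced small secreted proteins (MiSSPs), and some act as effectors in the host plant. Many genes of this genome, however, encode proteins without a known function.

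The libraries held 9470656 to 33122623 counted reads, so that 1 CPM stood for 9.47 to 33.1 reads and 3 reads for 0.0906 to 0.317 CPM. Many of the lower values thus differed by single reads. The names of 5 libraries end in a letter i that the labels do not explain. These are all 3 −N libraries, Control replicate 1 and −P replicate 3.

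The label of the set was checked in the Control libraries first. Control held no read in any library for 5 members (JGI-483976, JGI-483977, JGI-647526, JGI-445975 and JGI-620230). In contrast, 42 members had a read in every Control library, and the median over members was 10 reads in the 3 libraries together. The most reads of any member in 1 Control library was 12. The Control mean was 0.1 CPM or more for 51 members and 0.2 CPM or more for 31. The members were thus low rather than silent on control medium, with those 5 exceptions. Among all gene models, 8597 had a Control mean under 0.3 CPM, and of these 6012 had no Control read and 4188 no read in any of the 20 libraries.

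**Figure D1:**
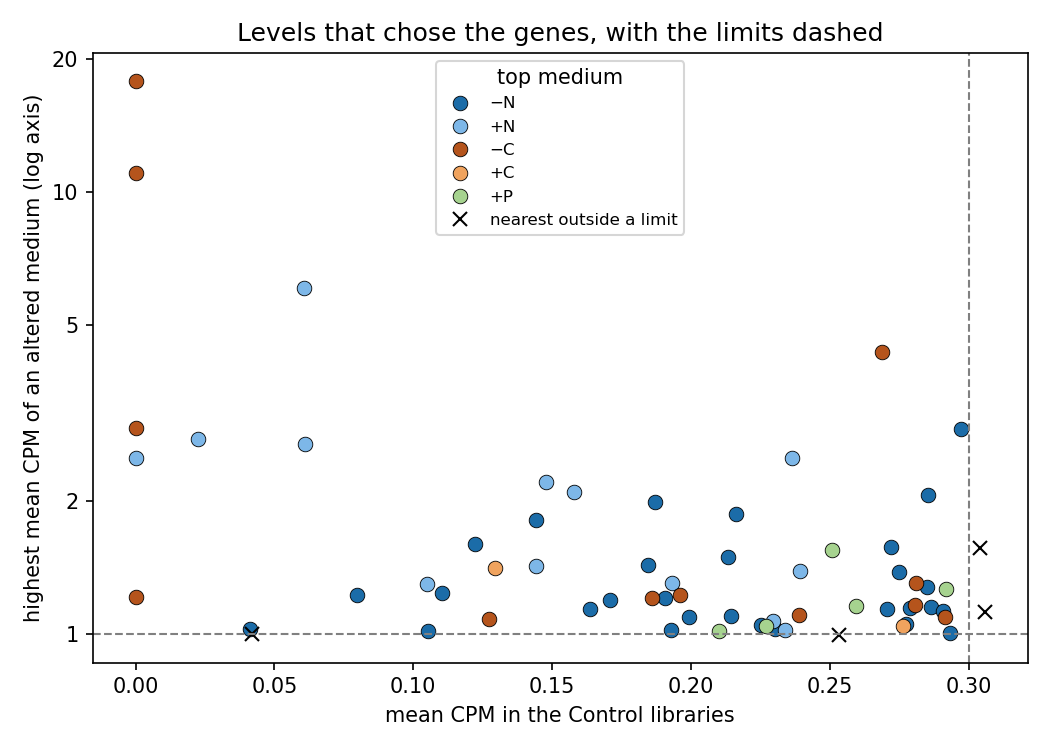
Mean CPM in the 3 Control libraries (x axis) against the highest mean CPM of an altered medium (y axis, log scale) for the 61 members, coloured by top medium, with the limits of the choice dashed and the 4 nearest genes outside a limit as crosses. Most members lie close to the lower limit of 1 CPM, and the 2 highest, at 17.8 and 11.0 CPM in −C, had no Control read.

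These values chose the members and are a description. The mean in the top medium ran from 1.00 to 17.8 CPM with a median of 1.24 CPM, it was under 1.5 CPM for 42 members and 2 CPM or more for 13. The members nearest to the Control limit were JGI-327559 (0.297 CPM) and JGI-483985 (0.293 CPM), and the nearest genes beyond it were JGI-477928 (0.304 CPM, 1.56 CPM in +P) and JGI-620765 (0.306 CPM, 1.12 CPM in −C). At the limit of 1 CPM, JGI-483985 (1.00 CPM) and JGI-568993 (1.02 CPM, both in −N) were just inside, whereas JGI-617285 (0.999 CPM in −N) and JGI-589563 (0.996 CPM in +C) were just outside. No gene model was left out by the limit on reads alone, a count of 0. Because many members lie close to a limit, their number depends on it, as given under the processing alternatives.

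Per transcript length the members stayed low in their own top medium. Their levels there ran from 0.517 to 28.1 RPKM (CPM divided by the transcript length in kilobases), with a median of 2.24 RPKM, beside 15.8 RPKM for the median tested gene in −N, 14.5 RPKM in +N and 15.2 RPKM in −C. All but 1 of the 61, namely 60, were below the median tested gene in that medium. The exception was JGI-596686 at 28.1 RPKM in +N, above 67.2% of tested genes. The members were also short, with a median transcript of 654 bases against 1122 bases for the 14725 gene models that entered the tests. Those models span all levels, and no set of similar CPM was compared. A RefSeq locus tag matched 14 members (23.0%, against 28.4% of tested genes), and 4 of these carried a gene symbol. The study's list of condition-specific and most regulated genes gave a functional name to 6 members. Its gene tables marked 9 as predicted small secreted proteins. That list covers selected genes only, so that a member absent from it may be annotated elsewhere. Of those 9, 7 had +N as their top medium, and the others were JGI-676988 of −C and JGI-334862 of +C.

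**Figure D2:**
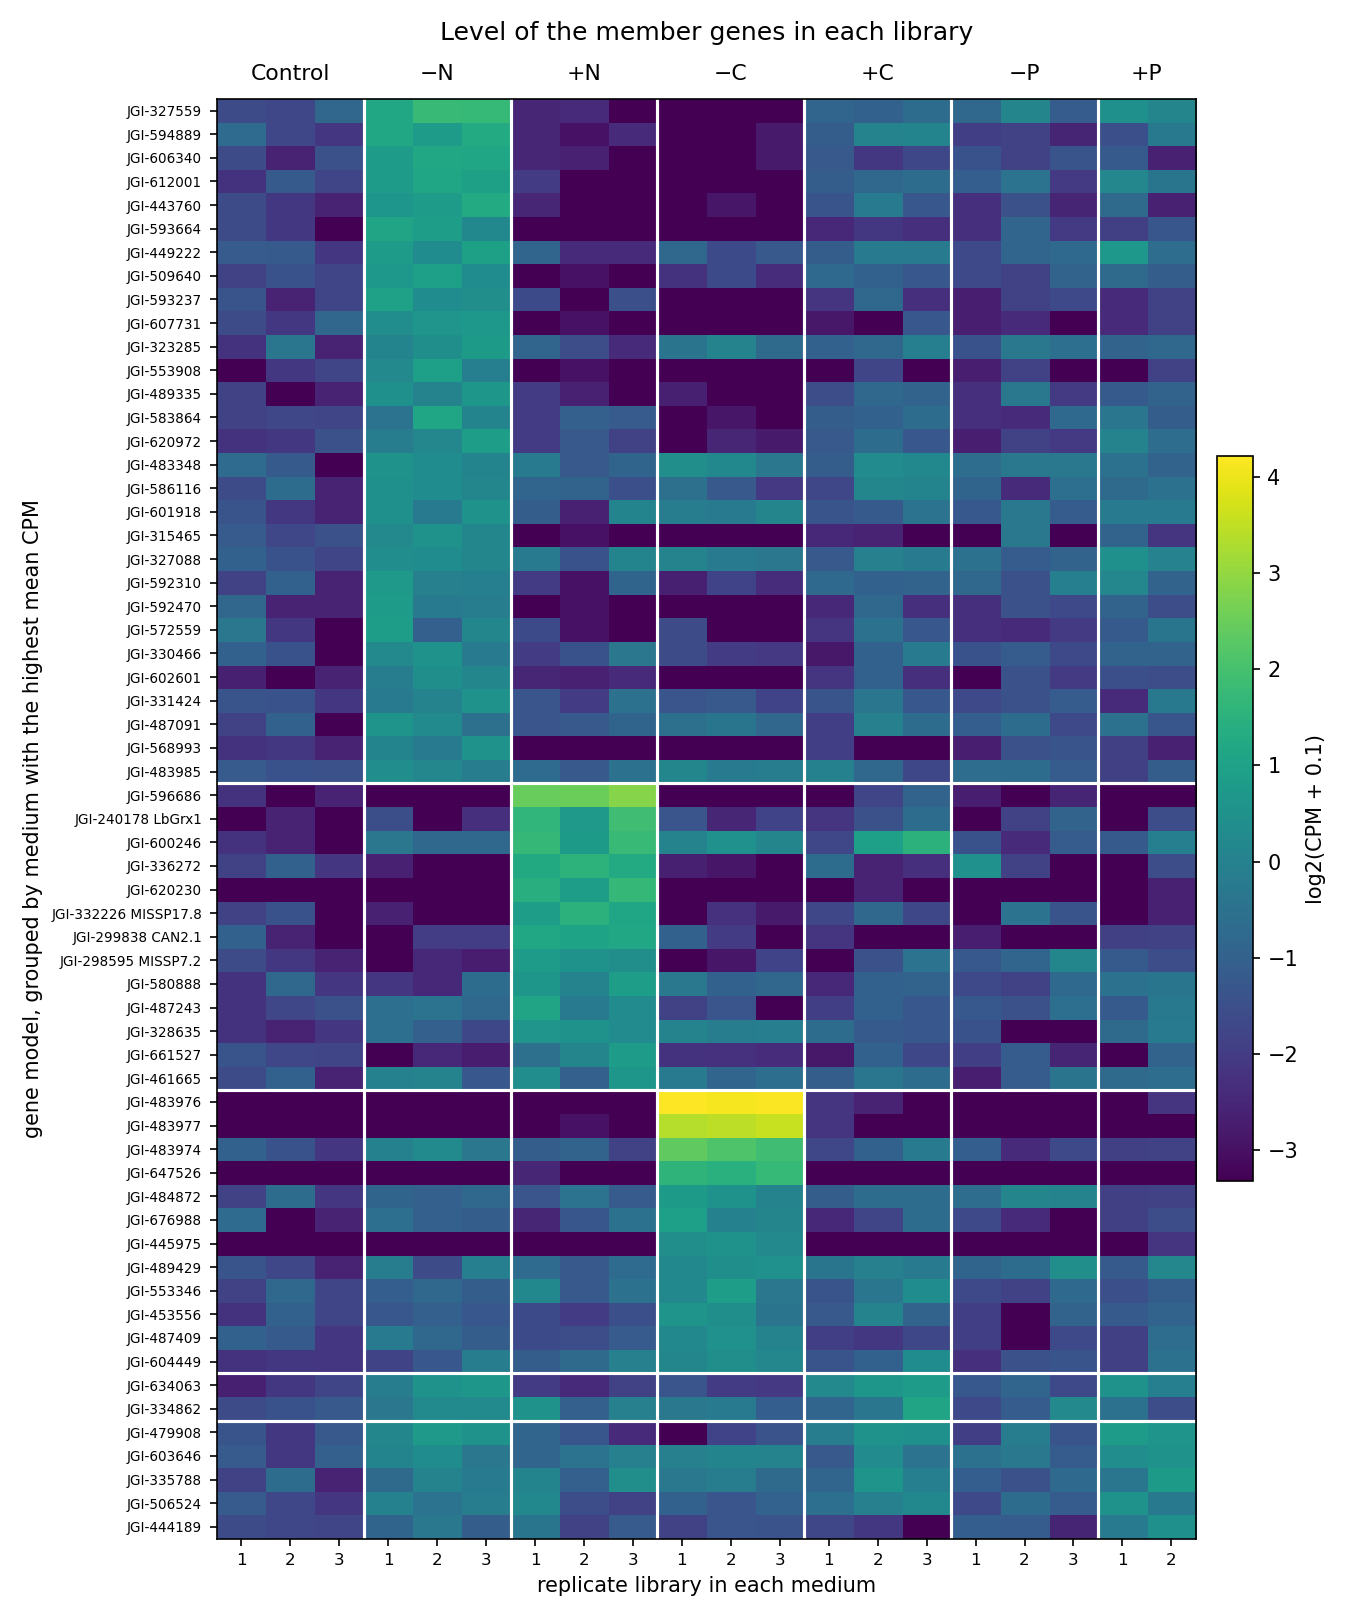
Level of the 61 members (rows, grouped by top medium and ordered by mean CPM within it) in the 20 libraries (columns, grouped by medium), as log2(CPM + 0.1), with yellow high and dark violet at or near 0. The genes highest in −N form the upper 29 rows, of which many are dark in −C and +N, and the genes highest in −C hold the 2 brightest rows.

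Replicates of the top medium agreed within a coefficient of variation of 3.31 to 80.9%, with a median of 22.6%. For 59 members every library of the top medium was above every Control library, and the exceptions were JGI-572559 in −N and JGI-461665 in +N. The choice used these same contrasts and so largely fixed the calls made in them, and neither these counts nor their distance from the share of all genes is a result. As a description, edgeR's quasi-likelihood test called 28 of 29 members higher than Control in −N, beside 14.7% of all tested genes called higher there. It called 13 of 13 in +N (14.1% of tested genes), 12 of 12 in −C (18.2%), 1 of 2 in +C (4.29%) and 5 of 5 in +P (4.23%). The exceptions were JGI-572559 in −N and JGI-334862 in +C.

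Most members met the limits in a single medium, which does not mean that they were confined to it. The mean in the top medium was 1.03 to 282 times that of the next medium, with a median of 2.3. The limits were met in 1 medium by 55 members, in 2 media by 3 and in 3 media by 3. Those that met them in 2 media, JGI-327559, JGI-449222 and JGI-327088, all did so in −N and +P. Of those that met them in 3, JGI-634063 and JGI-479908 did so in −N, +C and +P, and JGI-600246 in +N, −C and +C. For 38 members every library of the top medium lay above all other libraries. No read was found in any library of at least 1 other altered medium for 16 members.

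The 12 genes highest in −C included the highest of the whole set, and 4 of them had hardly any read elsewhere. JGI-483976, named a C-type lectin in the study's gene table after a family of sugar-binding domains best known from animals, had 315, 466 and 381 reads in the −C libraries. It had 0 reads in every Control, −N, +N and −P library, 3, 1 and 0 reads in +C, and 0 and 2 in +P. Its −C libraries averaged 17.8 ± 0.590 CPM (SD, n = 3), at least 93.4-fold higher than a Control floor of 3 reads per library. No library of another medium came near to any −C library.

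JGI-483977, named a leucine-rich acidic nuclear protein in the study's table, followed the same pattern. It had 177, 297 and 252 reads in −C (11.0 ± 0.694 CPM, SD, n = 3), no Control read, and 4 reads in the 17 libraries of other media together. JGI-647526, named after sortilin, a receptor family that sorts proteins to the vacuole in yeast and the lysosome in animals, had 49, 72 and 69 reads in −C and 1 read elsewhere. JGI-445975, without a functional name in that table, had 21, 36 and 23 reads in −C and 2 reads elsewhere, both in +P replicate 2. The 4 genes without a Control read had 2158 reads in −C and 13 reads in the 17 other libraries. The lower bounds over Control were 57.8-fold for JGI-483977, 15.3-fold for JGI-647526 and 6.35-fold for JGI-445975, on the same floor.

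JGI-483974, to which the study's table gives only a metabolic category, was the third highest in −C but was not absent elsewhere. It had 87, 115 and 78 reads in −C (4.33 ± 0.731 CPM, SD, n = 3), 14, 14 and 13 in −N and 7, 4 and 2 in Control. Its identifier and those of JGI-483976 and JGI-483977 follow each other directly in the list of gene models, with 0 listed models between them. The next model upward in that list, JGI-483980, had 7, 9 and 10 reads in −C against 8, 4 and 3 in Control, and the one after it, JGI-483981, had 88, 149 and 78 against 31, 31 and 13. The next model downward, JGI-483969, averaged 78.9 CPM in −C and 45.8 CPM in Control. The adjoining models on either side thus had Control reads. Whether these identifiers lie side by side in the genome was not examined here.

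JGI-483976 and JGI-483977 together made up 63.4% of the summed level of the 12 genes in −C. Per transcript length, JGI-483976 (9.57 RPKM) and JGI-483974 (8.02 RPKM) were the highest of the 12. The other 7 genes, among them JGI-484872 and the predicted secreted JGI-676988, averaged 1.08 to 1.30 CPM in −C and had reads in nearly all media. Their second highest medium was +C for 4 of the 7, the opposite change in glucose. JGI-484872 for example had 28, 36 and 20 reads in −C, 3, 8 and 2 in Control and 10, 11 and 13 in −P.

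**Figure D3:**
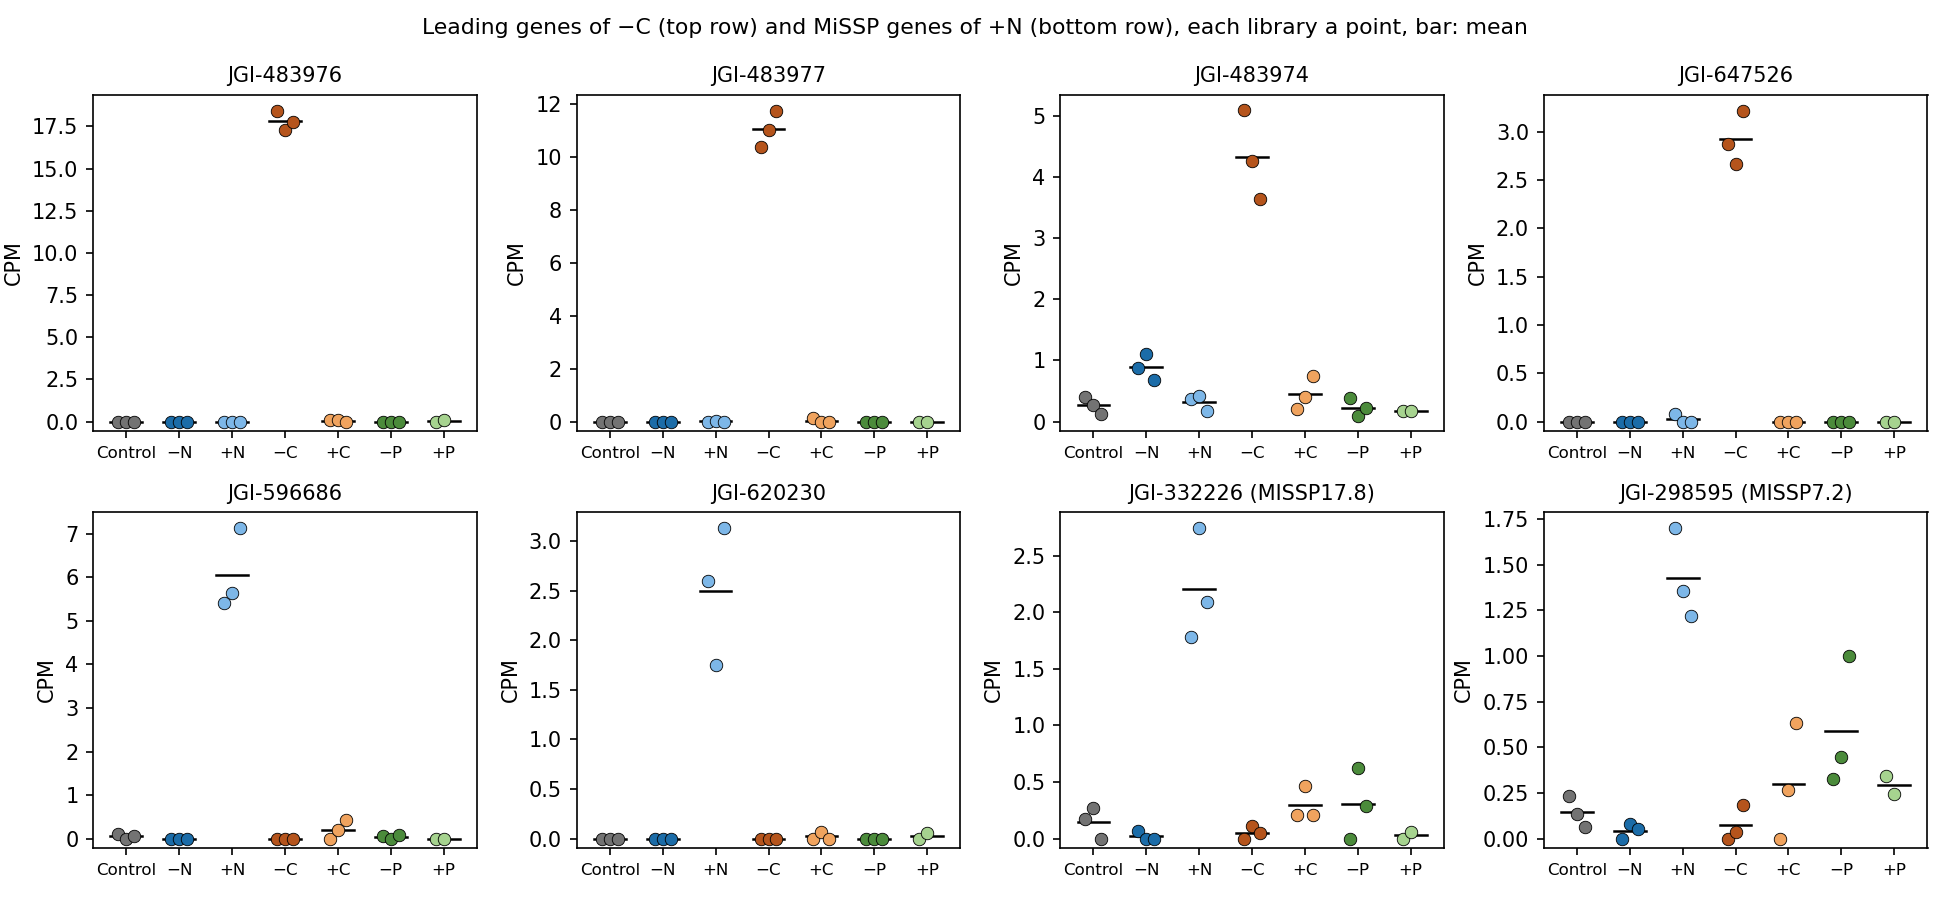
CPM in each library (points, 3 per medium and 2 for +P) with the mean of each medium as a bar, for the 4 leading genes of −C (upper row) and the 4 MiSSP genes of +N (lower row), each with its own axis from 0. JGI-483976, JGI-483977 and JGI-647526 lie at or near 0 outside −C, and JGI-596686 and JGI-620230 at or near 0 outside +N, whereas JGI-298595 shows reads in −P too.

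The 13 genes highest in +N held 4 of the 28 gene models listed as MiSSP, and no listed MiSSP was a member of another medium. Of all 23130 gene models, 61 were members. The list came from gene symbols and from the study's condition-specific and most regulated genes. Those genes were selected in part from these same libraries, so that the count is a description only. The highest was JGI-596686, a MiSSP of unknown function, with 73, 187 and 82 reads in +N (6.07 ± 0.942 CPM, SD, n = 3). It had 0 reads in every −N, −C and +P library, 2, 0 and 1 in Control, 0, 3 and 4 in +C and 1, 0 and 1 in −P. At 28.1 RPKM it was also the highest member per transcript length. With 3 reads in all of Control, no fold change is given for it.

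A second MiSSP of unknown function, JGI-620230, had 35, 58 and 36 reads in +N (2.49 ± 0.698 CPM, SD, n = 3). It had 2 reads in the other 17 libraries and none in Control, which puts +N at least 13.1-fold above the Control floor. Both transcripts were 216 bases long. Their sequences were not compared here, so that reads shared between similar copies cannot be told apart from reads of each gene.

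MISSP17.8 (JGI-332226) had 24, 91 and 24 reads in +N, which is 2.21 ± 0.494 CPM (SD, n = 3) at these depths. Control held 3, 4 and 0 reads, a level 14.9-fold lower, and −P held 0, 7 and 4. MISSP7.2 (JGI-298595) had 23, 45 and 14 reads in +N (1.43 ± 0.249 CPM, SD, n = 3), 4, 2 and 1 in Control and 6, 5 and 14 in −P. It was therefore the least confined of the 4, with −P replicate 3 at 14 reads.

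The MiSSP list was mixed beyond these members. Only 3 other MiSSP models had a Control mean under 0.3 CPM, namely MISSP6.6 (JGI-311468) with no read in any medium, MISSP13.4 (JGI-333839) at 0.0494 CPM or less in every medium, and MISSP21.9 (JGI-326398), whose Control mean of 0.218 CPM was its highest. Of 21 other MiSSP models that entered the tests, 5 were called higher and 4 lower in +N than in Control, beside 14.1% and 15.7% of all tested genes. In −N, 6 were called higher and 5 lower, beside 14.7% and 17.0%. MISSP23.5 (JGI-325402) for example averaged 96.0 CPM in −N, 3.96 CPM in Control and 1.14 CPM in +N, the reverse order of the members. JGI-388224, named MiSSP8, averaged 3.46 CPM in +N and 0.472 CPM in Control, and so missed the set by its Control level.

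The other leading genes of +N had more varied names. LbGrx1 (JGI-240178), by its symbol a glutaredoxin, a small redox enzyme that uses glutathione, had 41, 52 and 42 reads in +N (2.76 ± 1.07 CPM, SD, n = 3) and 0, 1 and 0 in Control. The remaining 12 glutaredoxin, thioredoxin and peroxiredoxin genes of the reference table averaged at least 6.16 CPM in Control, with 3 called higher and 2 lower in +N, beside 14.1% and 15.7% of all tested genes. CAN2.1 (JGI-299838), a carbonic anhydrase, which interconverts carbon dioxide and bicarbonate, had 29, 65 and 25 reads in +N (2.10 ± 0.117 CPM, SD, n = 3). It had 7, 1 and 0 reads in Control, a mean 13.3-fold lower. Its relative CAN2.2 (JGI-292325) was abundant in every medium, at 126 CPM in Control and 188 CPM in +N.

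JGI-600246, an unknown small secreted protein, was high in several media. It had 42, 54 and 38 reads in +N (2.69 ± 0.919 CPM, SD, n = 3), 5, 27 and 26 in +C, 16, 35 and 21 in −C, and 2, 1 and 0 in Control. JGI-336272, without a name in the study's gene table, had 31, 94 and 27 reads in +N and 3, 6 and 2 in Control. A single library stood out for it elsewhere, −P replicate 1 with 24 reads beside 2 and 0 in the other −P libraries. The remaining +N members, such as JGI-328635, JGI-580888 and JGI-461665, averaged 1.02 to 1.39 CPM there. None of the 8 mating pheromone and receptor models, 9 protease inhibitors or 7 ammonium transporters of the gene lists was a member, a count of 0 in each. Of all 23130 gene models, 61 were members. Only 2 of the listed models, both pheromone receptors, had a Control mean under 0.3 CPM. The Control limit alone thus kept out all the others, and the counts of 0 say little about these families.

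The 29 genes highest in −N formed the largest group. None had a functional name in the study's list of condition-specific and most regulated genes. Their summed level was 39.0 to 39.7 CPM in the −N libraries and 4.12 to 7.73 CPM in Control. It was 12.3 and 15.3 CPM in +P, 7.89 to 14.2 CPM in +C, 6.72 to 10.9 CPM in −P, 5.27 to 7.26 CPM in −C and 3.74 to 6.54 CPM in +N. The +P and +C libraries were all above the Control libraries, whereas those of −P, −C and +N overlapped with Control. The summed level of the other libraries whose name ends in i was 7.73 CPM in Control replicate 1 and 8.45 CPM in −P replicate 3. It was 4.12 to 10.9 CPM in the remaining Control and −P libraries. The choice kept the Control levels low, and all 3 −N libraries carry the letter. For the −N libraries themselves the letter and the medium can therefore not be told apart. In −P, replicate 3 with the letter, at 8.45 CPM, lay between the other replicates at 6.72 and 10.9 CPM. An effect of the letter on this sum was not tested.

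**Figure D4:**
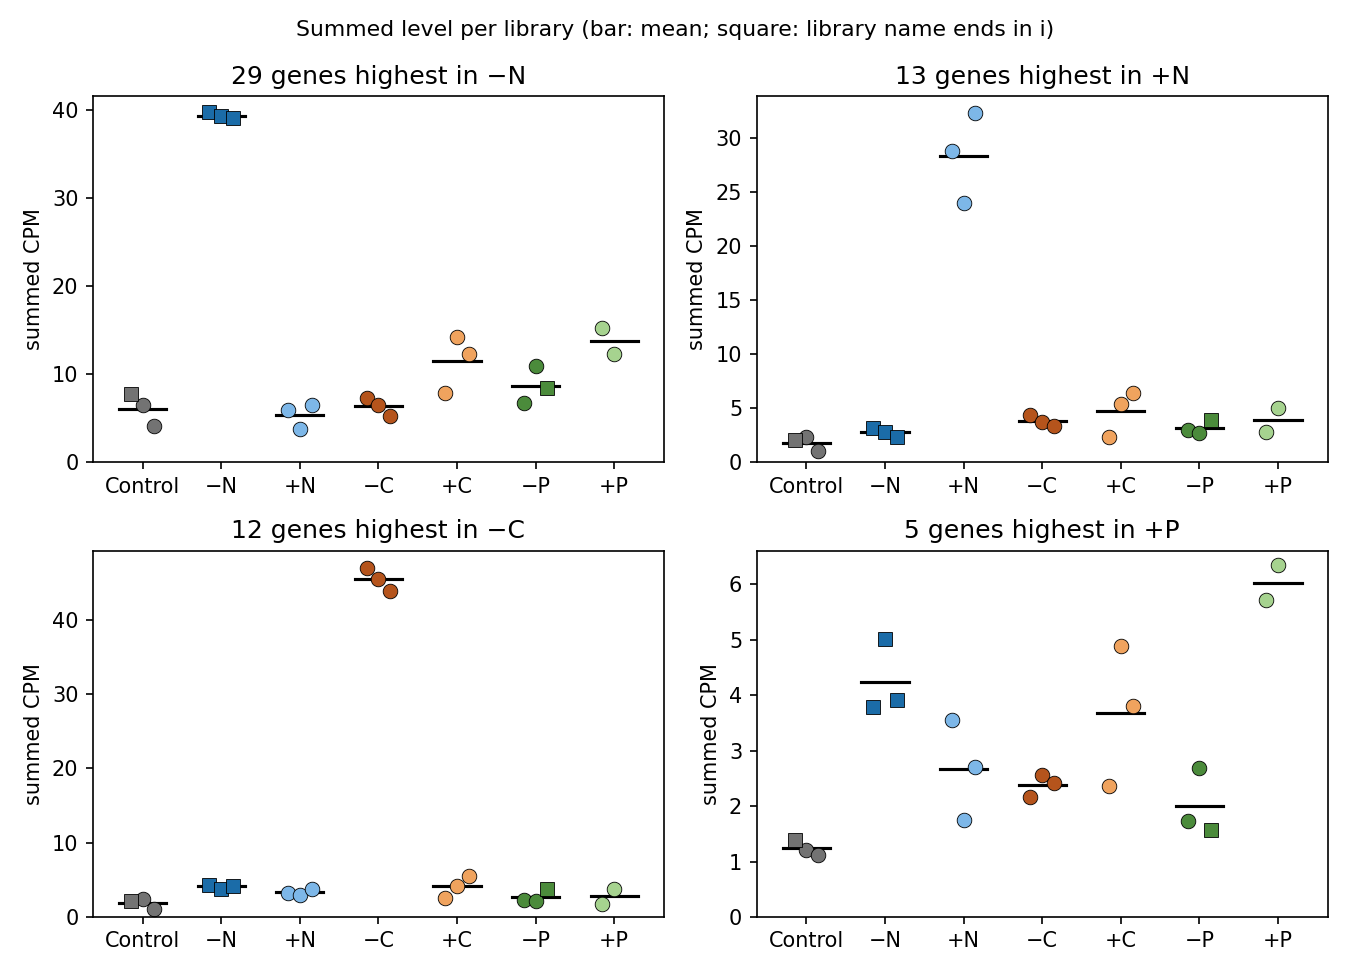
Summed CPM of the genes highest in −N (29), +N (13), −C (12) and +P (5) in each library, with the mean of each medium as a bar and libraries whose name ends in i as squares. The choice by highest mean fixed that the top medium leads in each panel, far above the others for −N, +N and −C. For +P the 2 libraries are at 5.72 and 6.34 CPM. A −N library at 5.02 CPM and a +C library at 4.89 CPM are close to them.

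The leader in −N was JGI-327559, with 35, 42 and 61 reads in −N (2.91 ± 0.606 CPM, SD, n = 3). It had 4, 3 and 7 reads in Control, a level 9.78-fold lower, and 15 and 16 in +P, where it also met the limits. In +N it had 1, 3 and 0 reads and in −C none in any library. JGI-594889 had 35, 21 and 44 reads in −N, 9, 3 and 2 in Control, 9, 14 and 9 in +C and 0, 0 and 1 in −C. JGI-606340 had 27, 28 and 39 reads in −N, 4, 1 and 4 in Control, and no more than 2 in any +N or −C library. JGI-612001 had 27, 26 and 35 reads in −N, 2, 5 and 3 in Control and 12 and 11 in +P. JGI-443760 had 23, 21 and 44 reads in −N against 4, 2 and 1 in Control, a level 12.5-fold lower in Control. All 5 were thus lowest in +N or −C, below their Control level.

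Low means in −C and +N were seen in other −N members too. The mean in −C was below the Control mean for 20 of the 29, and the mean in +N for 18. How often this holds among all gene models low in Control was not counted. No read was found in any −C library for 10 of them, beside 23.0% of the 2585 gene models that had a Control read and a Control mean under 0.3 CPM. Every +N and −C library held 3 reads or fewer for 14 of the 29, beside 46.3% of those 2585 models. Those models needed only 1 Control read, whereas the 29 had a median of 10 reads over the 3 Control libraries together. They were not matched to the 29 in Control level, so that neither share is a like-for-like baseline. These 14, picked by their values, summed to 21.3 to 22.0 CPM in −N, 1.82 to 3.26 CPM in Control, 0.423 to 0.889 CPM in +N and 0.0371 to 0.0932 CPM in −C. The other 15 genes summed to 17.0 to 18.4 CPM in −N, 1.64 to 4.64 CPM in Control and 5.18 to 7.20 CPM in −C. Since reads in −C and +N made the split, the levels of both sets in these media follow in part from it. The second highest medium was +P for 17 of the 29, +C for 5, −C for 5 and −P for 2.

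Contrasts between the surplus and the shortage of 1 nutrient do not involve Control. For a gene placed by another nutrient, neither medium of the contrast was its top medium. These contrasts were tested for such members only, with edgeR's quasi-likelihood test adjusted by Benjamini-Hochberg over all 14725 tested genes. The sorting took 12 members highest in −C and 2 highest in +C out of the carbon contrast. It took 29 highest in −N and 13 highest in +N out of the nitrogen contrast. The balance of calls between the 2 directions can therefore reflect the sorting. Some eligible members had also met the limits in a medium of the contrast, such as JGI-600246 in −C and +C. Between +C and −C, 15 of 47 eligible members were called higher in +C and 0 lower, beside 19.3% and 17.4% of all tested genes. At an unadjusted p under 0.05, 20 were higher and 1 lower, and DESeq2 called 14 higher and 0 lower. The shares above are of edgeR's adjusted calls and do not apply to these counts. Most of the calls, 13, were among the 29 genes highest in −N. Their median log2 fold change between +C and −C was 3.18, and that of all tested genes −0.01. Because 10 of the 29 had no read in −C, their fitted values are not bounded folds and the median is only an order of size. Every +C library was above every −C library for 14 of the 29, and the reverse held for 1. The same was not counted over all tested genes, so that these counts are a description only.

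The clearest of these genes were also leaders of −N. JGI-594889 had 9, 14 and 9 reads in +C and 0, 0 and 1 in −C (edgeR adjusted p of 6.39e-05). Its fitted log2 fold change of 4.94 ± 0.830 (SE) rests on 1 read in −C and is only an order of size. JGI-327559 had 11, 6 and 5 reads in +C (0.460 ± 0.0638 CPM, SD, n = 3) and none in −C, so that it was at least 3.23-fold higher against a floor of 3 reads per library (edgeR adjusted p of 9.93e-05). JGI-612001 had 9, 7 and 5 reads in +C and none in −C, at least 3.20-fold higher on that floor (edgeR adjusted p of 0.000338). In all 3 genes the +C and −C libraries did not overlap.

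**Figure D5:**
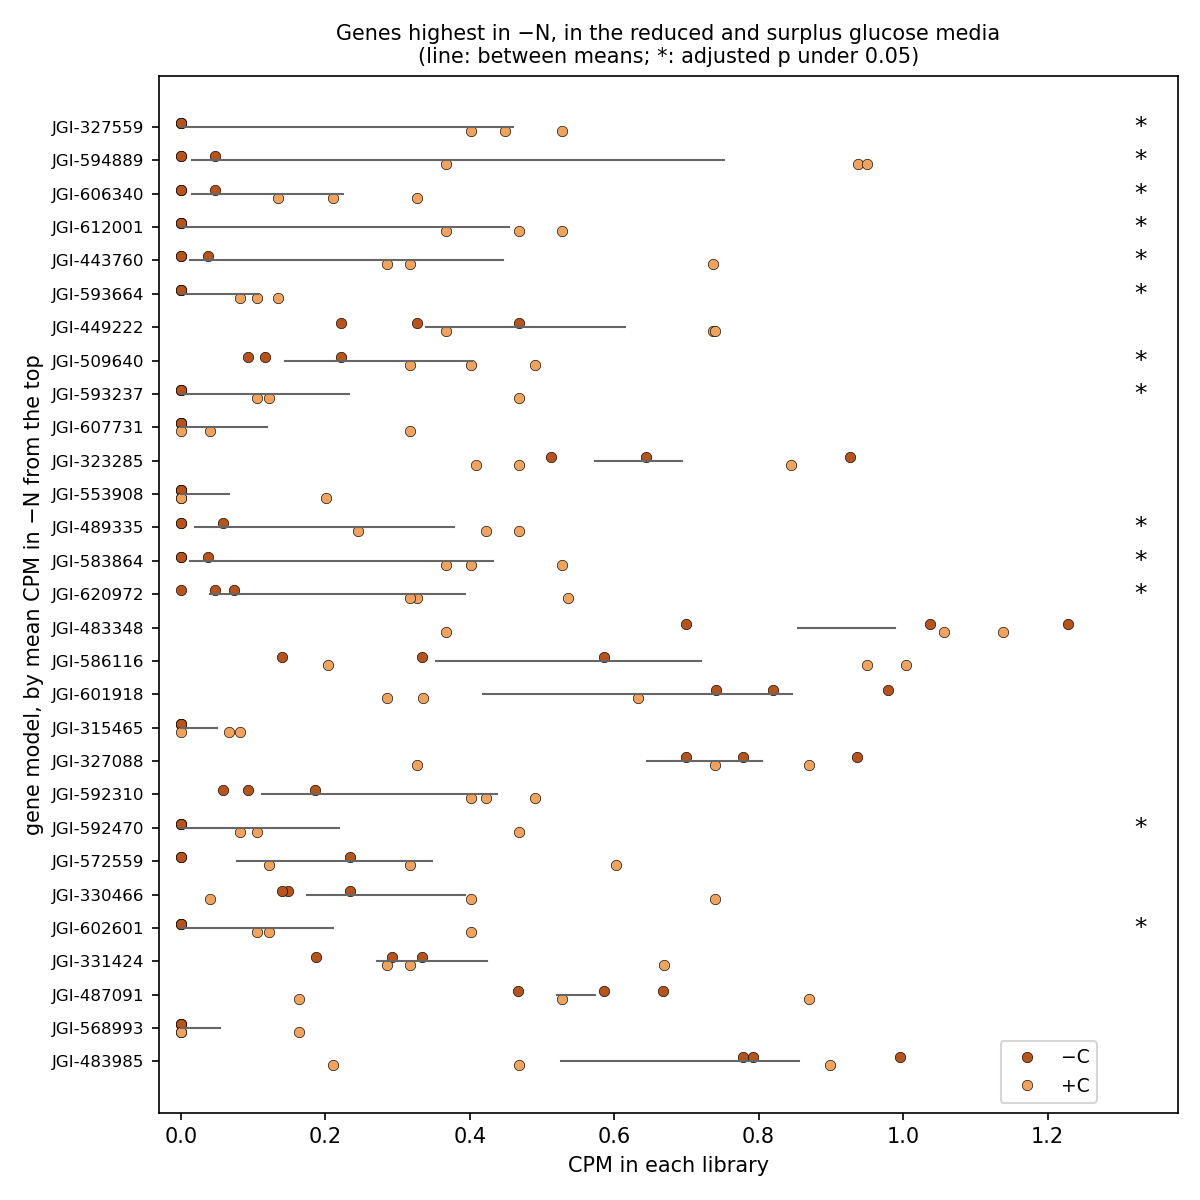
CPM in each −C (dark) and +C (light) library of the 29 genes highest in −N, with a line between the means and an asterisk where edgeR's adjusted p was under 0.05. The 13 genes with an asterisk all have a −C mean below their +C mean, and those without one include genes such as JGI-601918 and JGI-483985 whose −C mean is above their +C mean.

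Several −N members went the other way in their values without passing the test. JGI-601918 had 14, 20 and 21 reads in −C and 7, 5 and 6 in +C, and JGI-483985 had 17, 21 and 17 in −C and 22, 7 and 2 in +C. Of the weaker calls, JGI-593664 rested on 5 reads in +C and none in −C (adjusted p of 0.0460 in edgeR), and leaving out any 1 of the 6 libraries ended its call. The call of JGI-509640 ended under 7 of its 11 alternatives. Without +C replicate 2, 10 of the 15 calls remained. In the fit of the 2 media alone, the expression filter left 14 of the 47 members and 1 call. Without any filter the fit of all media called 13 of the 47.

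Outside the −N group the carbon contrast called 1 of 13 genes highest in +N and 1 of 5 highest in +P. JGI-479908, without a name in the study's gene table, had 20, 20 and 12 reads in +C and 0, 5 and 6 in −C (log2 fold change 2.67 ± 0.597, SE, edgeR adjusted p of 0.00118). It had met the limits in +C as well as in +P and −N, so that this medium was seen by the choice. The MiSSP JGI-596686 had 0, 3 and 4 reads in +C and none in −C (edgeR adjusted p of 0.0285), and 5 of 6 libraries each ended its call when left out.

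Between +N and −N, 3 of 19 eligible members were called lower in +N and 0 higher, beside 25.2% and 23.6% of all tested genes. No member was higher at an unadjusted p under 0.05 or with DESeq2 either, a count of 0 in both, and DESeq2 called 2 lower. No share of all genes is given for these rules. JGI-634063, one of the 2 members highest in +C and named as unknown by the study, had 2, 3 and 2 reads in +N and 13, 17 and 28 in −N (log2 fold change −3.10 ± 0.506, SE, edgeR adjusted p of 2.66e-05). JGI-479908 had 6, 10 and 1 reads in +N and 16, 20 and 25 in −N (log2 fold change −2.01 ± 0.557, SE, edgeR adjusted p of 0.00483). Both genes had also met the limits in −N. JGI-483974, highest in −C, had 5, 14 and 2 reads in +N and 14, 14 and 13 in −N (log2 fold change −1.18 ± 0.447, SE, edgeR adjusted p of 0.0341), a call that ended under 7 of its 12 alternatives.

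A term for the letter i left 1 of these 3 calls, that of JGI-634063. All −N libraries carry the letter, and in this fit their difference is judged through the Control and −P libraries with and without it. For JGI-634063 the other libraries with the letter had 1 read in Control replicate 1 and 3 in −P replicate 3, against 2 to 6 in the remaining Control and −P libraries.

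Between +P and −P, 3 of 56 eligible members were called higher in +P and 1 lower, beside 3.93% and 5.70% of all tested genes. JGI-620972, highest in −N, had 11 and 9 reads in +P and 1, 2 and 2 in −P (edgeR adjusted p of 0.0270). JGI-634063 had 16 and 14 reads in +P, where it had met the limits, and 6, 5 and 3 in −P (edgeR adjusted p of 0.0408). JGI-328635, a predicted secreted protein highest in +N, had 6 and 13 reads in +P and 5, 0 and 0 in −P (edgeR adjusted p of 0.0426). JGI-484872, highest in −C, was lower, with 2 and 3 reads in +P and 10, 11 and 13 in −P (edgeR adjusted p of 0.0290). None of these 4 calls was made by DESeq2, which gave an adjusted p for 2 of the 56 members, and leaving out single libraries left 0 to 2 calls.

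The 5 genes highest in +P and the 2 highest in +C were spread over several media. JGI-479908 led +P with 20 and 23 reads (1.55 ± 0.224 CPM, SD, n = 2), beside 5, 2 and 5 in Control. JGI-603646 had 14 and 22 reads in +P, 15, 15 and 13 in −N and 6, 2 and 6 in Control. JGI-335788 had 8 and 27 reads in +P and thus rested mostly on replicate 2. JGI-506524 had 16 and 12 reads in +P against 6, 3 and 2 in Control, and JGI-444189 had 9 and 21 against 4, 3 and 3. For these 5 the +P mean was at most 2.01 times that of the next medium.

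In +C, JGI-634063 had 26, 22 and 16 reads (1.41 ± 0.319 CPM, SD, n = 3) and 1, 2 and 3 in Control. JGI-334862, named a defense-related protein with an SCP domain in the study's table, had 11, 10 and 19 reads in +C (1.04 ± 0.842 CPM, SD, n = 3) and 4, 4 and 5 in Control. It had 11, 14 and 21 reads in −N and 18, 13 and 10 in +N, and its top medium was set by +C replicate 3, the shallowest library. Both +C members had −N as their second medium, at a ratio of at most 1.16. Their top medium is therefore not separated from −N beyond the spread of the libraries.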

How the data were processed

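As the study's methods state, the authors trimmed reads, discarded those under 15 nucleotides and mapped the rest with CLC Genomics Workbench 8 to the reference transcripts of the JGI v2 annotation, with a length fraction of 0.9, a similarity of 0.8 and up to 10 hits per read. The deposited raw read count per gene model is a whole number, and library totals differ. Whether counts are of unique or all mapped reads, and whether strand was used, is not given in the sources used here, so reads of near-identical copies, overlapping models and antisense neighbours may be shared. The authors also deposited RPKM values, read counts scaled by transcript length and library size. They were used only to derive the transcript length, and the RPKM given here was recomputed from counts. The submitters' processing notes name DESeq2.

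Here CPM was the raw count scaled to a column total of 1000000 per library. The members and the gene lists were chosen with earlier results of these data known. Tests were edgeR 4.0.16 quasi-likelihood fits (R 4.3.3, TMM, default filter by group) of all 20 libraries with a mean per medium, adjusted by Benjamini-Hochberg over 14725 tested genes, with a threshold of 0.05. The SE beside an edgeR log2 fold change is its absolute value divided by the square root of the test's F statistic. DESeq2 1.42.0, with its own size factors, was an alternative, as were other scaling, no filter, the compared media alone, the replicate number as a block, a term for the letter i, and each library left out. Fits were tested on 10 simulated sets, in which false calls averaged close to the nominal share, with single sets above and below it. No 2 libraries of a group held the same values, and all 20 were kept as replicates.

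Genes named in the text are the 5 highest members per top medium, members annotated as MiSSP or in other listed families, up to 3 called members by p in each direction of each tested contrast, those nearest to a limit, and members with adjoining identifiers. Other genes were named after their values were seen, and the lists of glutaredoxin relatives and carbonic anhydrases were likewise added then. Of the 61 members 14 matched a RefSeq locus tag by number. That table is of another assembly (V1.0), so no coordinates are given, and no sequences were used. Calls against Control are given only as a description, and the contrasts between surplus and shortage were tested only in members placed by another nutrient. Floors and counts of reads cover counting error only.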

Additional observations from a re-analysis of the deposited data

How the results depend on the processing

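The number of members depended on the limits. It was 10 at a Control limit of 0.1 CPM, 199 at 0.5 CPM and 13 at a medium limit of 2 CPM, and 54 to 88 without single libraries. By top medium, the limit of 0.1 gave 2 genes in −N, 4 each in +N and −C, and 0 in +C and +P. The limit of 0.5 gave 95 genes for −N and 40 for +N, 35 and 12 for −C and +C, and 3 and 14 for −P and +P. The medium limit of 2 CPM gave 2 in −N and 7 in +N, 4 for −C and 0 for +C and +P. TMM-scaled CPM left 1 gene in +C, and a minimum of 10 reads left 3 in +P. Without single libraries the counts were 22 to 41 in −N, 11 to 19 in +N, 10 to 20 in −C (20 without Control replicate 2), 1 to 5 in +C (5 without +C replicate 1), 0 to 1 in −P and 4 to 14 in +P (14 without +P replicate 1).

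Of the tested contrasts, the carbon contrast had 15 calls and 12 to 14 without single libraries, of which 10 to 13 were among the 15. It fell to 1 call in the fit of both carbon media alone, where the filter left 14 of 47 members. The nitrogen contrast had 3 calls, 2 to 3 without single libraries and 1 with a term for the letter i. The phosphorus contrast had 4 calls, 0 with DESeq2, 0 in the fit of both phosphorus media alone, 2 without filter, 1 with the letter term and 0 to 2 without single libraries. No value of a called gene changed sign. With the replicate number as a replicate block, 14 carbon calls, 3 nitrogen calls and 2 phosphorus calls were made. Libraries with the same number deviated from their group means with a median correlation of −0.02 over 57 pairs, so that the numbers were not taken to pair the libraries. Upper quartile scaling left the counts of nitrogen, carbon and phosphorus calls at 3, 15 and 4. Depth limits all members, whose Control levels rest on 12 reads or fewer per library.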
